A study of Homo sapiens with 16 samples.

Results

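The sites described here are the listed pseudouridine positions of HEK293T cells that carry the name of a small nucleolar RNA (snoRNA), a small Cajal body RNA (scaRNA) or a small nuclear RNA (snRNA) other than U6. They were taken from the deposited pre-mRNA site list by its gene type and gene symbol, which gave 128 of 13398 sites, under 95 gene symbols and 103 gene IDs. By gene type 89 were snoRNA sites, 34 snRNA sites and 5 scaRNA sites. By symbol 18 sites belonged to U3, 23 to other box C/D snoRNAs, 32 to box H/ACA snoRNAs, 6 to scaRNAs and 15 to snoRNAs with no family name. The snRNA sites were 11 of U1, 6 of U2, 6 of U4, 1 of U5, 5 of U7, 3 of U6atac and 2 of 7SK. Sites under U6 names are not included.

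The assay, PRAISE-seq, treats RNA with sulfite and bisulfite, which forms an adduct on pseudouridine. Reverse transcriptase passes over the adduct, and the deletion level is the percentage of reads that lack the base. HEK293T is a transformed human line of embryonic kidney origin, and RNA was depleted of ribosomal RNA before treatment. The series has 16 libraries: from HEK293T controls (2 treated, 2 untreated), from the HEK293T PUS TKO line, which lacks PUS1, PUS7 and RPUSD4 (3 treated, 3 untreated), and from HuCCT1, a bile duct cancer line (3 treated, 3 input). The site list holds 1 pooled deletion level and 1 coverage per site and no column per library, and the libraries behind each value were not given in the sources used here. No replicate error, knockout value or HuCCT1 value can therefore stand beside a level, and each 95% interval (Clopper-Pearson) covers counting error only.

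Box C/D snoRNAs pair with target RNA to place ribose methylation, and box H/ACA snoRNAs pair with target RNA so that dyskerin can turn a chosen uridine into pseudouridine. ScaRNAs carry the same boxes and guide modification of spliceosomal snRNAs in Cajal bodies. U3 and U8 are box C/D RNAs that act in the processing of pre-ribosomal RNA rather than as common methylation guides, and most human snoRNAs are cut from introns of host genes. The spliceosomal snRNAs are themselves known to carry pseudouridines, and the human genome holds many copies of them that are pseudogenes.

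The 11 deposited bases around the sites on which the results turn are printed 5′ to 3′ in DNA letters, with the listed uridine as a capital T. The first set shows the deepest or highest sites of named small RNAs, the second the U3 contexts that recur at several loci, and the third sites that lie inside tRNA genes or have a context listed under other RNA classes. Sequences of chromosome 8 members are not printed.
SCARNA16 at 107: agtctTtcctg
SCARNA16 at 108: gtcttTcctgg
SNORD16 at 51: ttgccTgctgt
SNORD89 at 52: agcagTttgct
SNORD118 at 28: acctgTtcctc
SNORD13P3 at 72: gaaccTtgtta
SNORA4 at 17: agcttTttggg
SNORA4 at 18: gctttTtgggg
SNORA4 at 19: cttttTggggg
SNORA74A at 107: tgtttTggtgt
SNORA31 at 41: tgttcTtttgg
RN7SK at 248: ccattTgtagg
RNU4-52P at 77: cccaaTacccc
SNORD3A at 25: tcattTctata
SNORD3C at 23: gatcaTttcta
SNORD3E at 48: agaagTttctc
SNORD3E at 49: gaagtTtctct
ENSG00000222588: aagttTctctg
RNVU1-28: ggtggTtcgag
RNVU1-29: gtggtTccagc
RNU7-26P: ccgggTtcgat
RNU4-47P: atgacTgaacg
ENSG00000252290: ctggaTagtag

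The median deletion level of the 128 sites was 11.2%, beside 12% over all listed sites, with a middle range of 7.17% to 16.7% and a highest level of 49.4%. Coverage ran from 16 to 139876 reads with a median of 61.5, against 35 over all listed sites. An interval whose lower bound was at least 5%, the lowest level in the list, was found at 58 of the 128 sites (45.3%), and at 29.8% of all listed sites. Among sites with at least 60 reads the count was 43 of 68 (63.2%), where the background was 19.1% of 2655 sites. The median level of those deep sites was 9.2%, against 6.7% for all listed sites of that depth. The group was therefore deeper than the list as a whole, and with the same minimum of 60 reads its sites cleared 5% more often. Depth above that minimum was not matched, and at a given level the lower bound rises with depth. The shares therefore do not separate level from depth. Neither difference was tested.

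**Figure D1:**
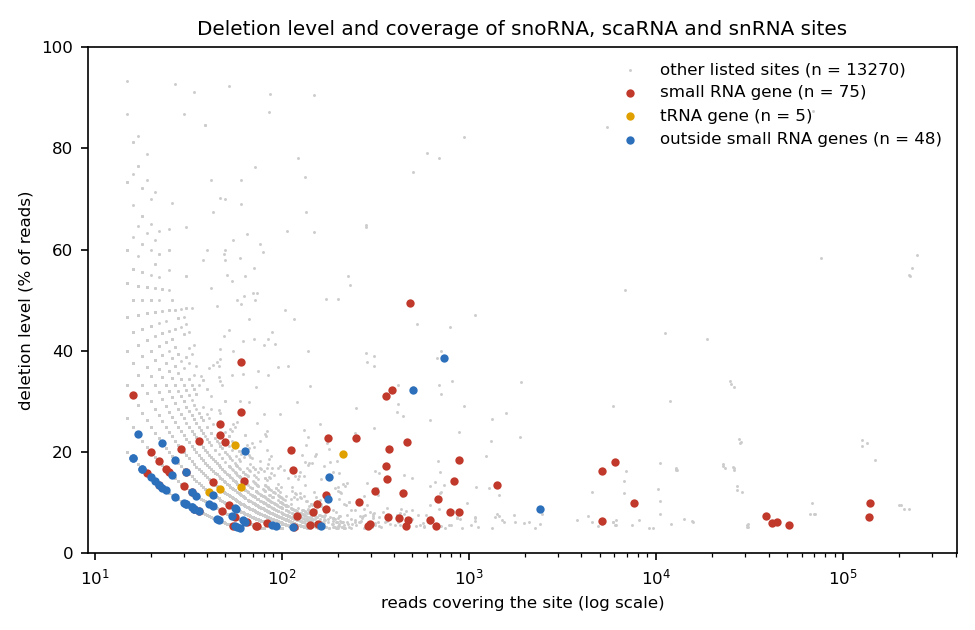
Deletion level (% of reads) against coverage (reads, log scale) for every listed site. Grey points are the 13270 other sites, and coloured points are the 128 snoRNA, scaRNA and snRNA sites, split into 75 inside an annotated small RNA gene, 5 inside a tRNA gene and 48 outside both. The deepest members are inside small RNA genes, and 46 of the 48 members outside lie below 30%.

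The gene name of a site did not always mean that the site was in that RNA. Set against the RefSeq gene coordinates of GRCh38.p14, 75 of the 128 sites lay inside an annotated small RNA gene shorter than 500 nt, 5 lay inside a tRNA gene, and 48 lay outside both. Of the 48, 33 had a symbol with a RefSeq gene, and their distance to it was 77 nt at the least, 6590 nt in the median and 132603 nt at the most. The sites inside small RNA genes had a median coverage of 173 reads and a median level of 11.6%, and 45 of 75 (60%) had an interval at or above 5%. The sites outside had a median coverage of 35.5 reads and a median level of 9.9%, and 10 of 48 (20.8%) cleared that bound. The share over all listed sites was 29.8%. With at least 60 reads, 35 of 53 (66.0%) inside and 6 of 13 (46.2%) outside cleared it, beside 19.1% of all listed sites. Depth above that minimum was not matched, so the shares inside and outside do not separate level from depth. Exactly 3 deletion reads, the minimum of the list, were behind 23 of the 48 sites outside and 5 of the 75 inside. Where the host strand was known, the site was on the strand of at least 1 overlapping host at 41 of 49 sites inside small RNA genes. Outside them this held at 9 of 32. Sites with hosts on both strands, such as those of SNORA13, are counted as on the host's strand. Levels of sites outside are accordingly given apart, and positions within an RNA are counted from 1 at its 5′ end on the assumption that it is transcribed from the strand of the site. For every class below, the count of intervals at or above 5% stands beside 29.8% of all listed sites, or 19.1% at 60 or more reads. Median coverage ran from 33 reads for U7 to 351.5 for scaRNAs and 139055 for 7SK. The counts were not tested between classes.

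U3 is the RNA with the deepest sites of the box C/D class, and its 18 sites had a median level of 10.8% and a median coverage of 292.5 reads, with 12 intervals at or above 5%. The median was 7.15% at coverage of at least 30 reads, 6.65% at 60 or more and 6.25% inside the RefSeq gene of the same symbol. The 4 copies of the main U3 gene cluster on chromosome 17 had 1 listed uridine each, in the run of uridines at positions 23 to 25 of the 217-nt RNA. SNORD3A had 5.7% of 51434 reads (interval 5.50% to 5.90%) and SNORD3B-1 had 6% of 41611 reads, both at position 25. SNORD3B-2 had 7.3% of 38718 reads and SNORD3C had 6.2% of 44241 reads, both at position 23. The same run of the same RNA was thus listed at its last base in the copies on the plus strand and at its first base in the copies on the minus strand, which is the base with the highest genome coordinate in each case. SNORD3B-2 and SNORD3C differed by 1.1 percentage points (two-sided Fisher's exact test, adjusted p = 1.57e-09), while SNORD3B-1 and SNORD3A differed by 0.3 points (exact test, adjusted p = 0.0777). Copies this similar can exchange reads in alignment, so a difference between 2 of them is a difference between reads assigned to each, not between separately measured molecules.

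A further run of uridines, at positions 48 to 50 of SNORD3E, was listed across many U3 loci. Over the 3 contexts that read this run at its first, middle or last base, the list held 22 sites, of which 10 are members and 12 carry other names, with levels of 5.1% to 64.9%. SNORD3E, an X-linked copy inside TEX11, had 16.3% of 5161 reads at position 48 (interval 15.3% to 17.3%) and 6.3% of 5153 reads at position 49. The U3 copy on chromosome 2 had 9.9% of 7617 reads at position 48, below SNORD3E in the same 11 bases (exact test, adjusted p = 3.44e-25). The copy on chromosome 14 had 7% of 426 reads there, also below SNORD3E (exact test, adjusted p = 1.86e-07), and did not differ by the test from the chromosome 2 copy (exact test, adjusted p = 0.0777). At position 50 the copy on chromosome 6 had 22.7% of 176 reads and the copy on chromosome 8 had 5.8% of 295 reads (exact test, adjusted p = 3.78e-07). The copy on chromosome 3, where this base is at position 47 of the RefSeq gene, had 23.4% of 47 reads, above chromosome 8 (exact test, adjusted p = 0.00102) and not separated from chromosome 6 (exact test, adjusted p = 1).

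The highest level of that context among the members was at ENSG00000222588, a snoRNA locus within EIF3A on chromosome 10 that was not inside a RefSeq small RNA gene, with 32.2% of 503 reads. It was above the chromosome 8 copy (exact test, adjusted p = 1.96e-19) and the chromosome 6 copy (exact test, adjusted p = 0.0426), and was not separated from the chromosome 3 copy (exact test, adjusted p = 0.336). At the middle base the chromosome 6 copy had 11.6% of 173 reads, above the 6.3% of SNORD3E (exact test, adjusted p = 0.0248), and the chromosome 8 copy had 5.5% of 290 reads. U3 was also listed at further sites of low depth. A site at position 36 of the chromosome 14 copy had 22% of 50 reads, above position 48 of that copy (exact test, adjusted p = 0.00564). The U3 copy inside LAMB1 on chromosome 7 had 31.2% on 5 of 16 reads at position 54. A second chromosome 14 copy, inside CATSPERB, had 16.7% on 4 of 24 reads at position 49, in a run at positions 49 to 50 with another context. The 2 U3 sites outside small RNA genes had 3 deletion reads each and levels of 16.7% and 18.8%.

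**Figure D2:**
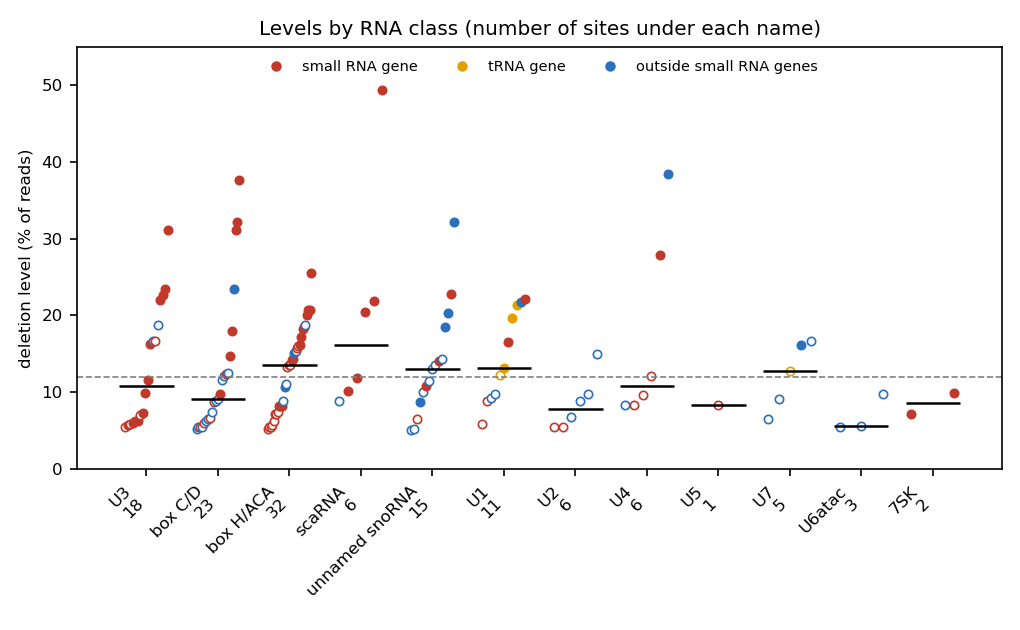
Deletion level (% of reads) of each of the 128 sites by RNA class, with the number of sites under each name. Filled points have a 95% interval whose lower bound is at least 5%, open points do not, colours give the place of the site, black lines are class medians, and the dashed line is the 12% median of all listed sites. The class medians lie between 5.6% for U6atac and 16.2% for scaRNAs.

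The other box C/D snoRNAs had 23 sites with a median of 9.1%, and 8 intervals at or above 5%. The 11 sites inside small RNA genes included 7 of these 8 and had a median level of 12.4%. SNORD118, the gene of U8, was the deepest, with 18% of 6073 reads at position 28 of 137 (interval 17.0% to 19.0%) on chromosome 17. SNORD16, inside the ribosomal protein gene RPL4, had 32.2% of 391 reads at position 51 of 100 (interval 27.6% to 37.1%). SNORD89, inside RNF149, had 31.1% of 363 reads at position 52 and 14.7% of 367 reads at position 53. SNORD13P3, a U13 copy inside KIF9, had the highest level of the class, 37.7% of 61 reads at position 72 (interval 25.6% to 51.0%). These 4 RNAs come from 4 chromosomes, and their listed uridines share no context.

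SNORD21, inside RPL5, had 12.4% of 314 reads at position 40 (interval 8.98% to 16.6%). The paired genes SNORD62A and SNORD62B, both inside PRRC2B on chromosome 9, were listed at the same base 49 with 9.7% of 155 reads and 8.7% of 173 reads, and the test did not separate them (exact test, adjusted p = 0.905). SNORD45A, inside RABGGTB, was listed at 2 bases, with 5.4% of 463 reads at position 58 and 6.6% of 472 reads at position 59, both with intervals that reached below 5%. SNORD93 had 6% of 83 reads. The 12 box C/D sites outside the RNAs ranged from 5.2% to 23.5% on 17 to 163 reads. The deepest of them, under SNORD67, had 5.5% of 163 reads, and the highest, under SNORD54, had 23.5% on 4 of 17 reads and was the one of the 12 to clear 5%. Of the others, SNORD97 had 11.6% of 43 reads, SNORD22 12.1% of 33 reads and SNORD91B 12.5% of 24 reads.

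Box H/ACA snoRNAs, the guides of pseudouridylation, had 32 sites with a median level of 13.6%, and 15 intervals at or above 5%. The median was 8.8% at coverage of at least 30 reads and 8.2% at 60 or more, so the shallow sites carried the higher value. A listed site has at least 3 deletion reads, so a shallow site cannot have a low level. At 16 reads, as under SNORA33, 3 deletion reads already make 18.8%. SNORA31, inside TPT1, was the deepest, with 13.5% of 1420 reads at position 41 of 130 (interval 11.8% to 15.4%). SNORA4, inside EIF4A2, was listed at 3 bases of the run at positions 15 to 19. Its level was 8.2% of 795 reads at position 17, 14.2% of 836 reads at position 18 and 18.5% of 885 reads at position 19. The first of these was below the middle one (exact test, adjusted p = 0.000469) and the last (exact test, adjusted p = 2.84e-09), and the middle and last were not separated (exact test, adjusted p = 0.0534, or 0.0477 when only pairs under the same gene ID are counted). SNORA63, in the same host, had 8.2% of 147 reads at position 99. SNORA74A, inside SNHG4, had 7.1% of 368 reads at position 106 and 20.7% of 376 reads at position 107 (exact test, adjusted p = 4.18e-07).

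SNORA19, inside EIF3A, had 8.2% of 882 reads at position 22, and SNORA27, inside RPL21, had 5.4% of 666 reads at position 38. SNORA40B, inside RAB3GAP1, had 17.2% of 361 reads at position 28, and a second site with its name, outside the RNA, had 11.1% of 27 reads. ENSG00000212149 on chromosome 17, annotated in RefSeq only by a locus number, had 22.8% of 250 reads at position 27. Its context equals that of SNORA40B when moved by 1 base, and the levels were not separated (exact test, adjusted p = 0.143). SNORA11D and SNORA11E, inside MAGED4 and MAGED4B, likewise shared a shifted context, with 13.6% of 22 reads and 15.8% of 19 reads (exact test, adjusted p = 1).

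SNORA56 lies inside DKC1, the gene of dyskerin, and had 14.3% of 63 reads at position 31 and 6.2% of 65 reads at position 42 (exact test, adjusted p = 0.328). The highest level of the class was at SNORA50C, with 25.5% of 47 reads at position 83 (interval 13.9% to 40.3%). SNORA13 was listed at 2 neighbouring bases on the plus strand, with 16.1% of 31 reads and 20.7% of 29 reads, and at 1 base on the minus strand with 7.1% of 56 reads. EPB41L4A and its antisense transcript lie on opposite strands there. SNORA8, on the strand opposite to its host TAF1D, had 20% on 4 of 20 reads. Outside the RNAs, the pair under SNORA72 on chromosome 1 had 10.7% of 177 reads and 15.1% of 179 reads. That pair lay within NUCKS1 and on the strand opposite to it. SNORA33 had 18.8% on 3 of 16 reads.

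ScaRNAs had 6 sites, a median level of 16.2% and 5 intervals at or above 5%, all 5 inside annotated RNAs. SCARNA16, a 187-nt RNA inside SNHG20 and SEC14L1 on chromosome 17, held the highest level of all 128 sites. Its uridine at position 108 (chromosome 17, position 77089414, plus strand of hg38) had 49.4% deletions, 238 of 482 reads, with an interval of 44.8% to 53.9%. The uridine before it had 21.9%, 102 of 465 reads, and the pair differed by 27.5 points (exact test, adjusted p = 6.67e-18). SCARNA21, inside CHD3, had 20.5% of 112 reads at position 79. SCARNA22, inside NSD2, had 11.9% of 445 reads at position 36, and SCARNA18, inside TMEM167A, had 10.1% of 258 reads at position 21. The site named for SCARNA14 lay 6054 nt from that gene and had 8.8% of 34 reads.

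The 15 sites named for snoRNAs without a family name had a median level of 13% and 7 intervals at or above 5%. Only 4 lay inside a small RNA gene, with 3 of these intervals: ENSG00000275146, ENSG00000212273, ENSG00000206913 and ENSG00000212149. The other 11 lay outside, with 4 intervals and a median coverage of 35 reads. Their names do not place them in a RefSeq small RNA gene. ENSG00000275146 lay inside SCARNA9, a 353-nt scaRNA in CEP295, with 6.5% of 620 reads at position 71. ENSG00000212273 on chromosome 8 had 10.8% of 687 reads, and ENSG00000206913 had 14% of 43 reads. ENSG00000200991, opposite to ALPK3, had 20.3% of 64 reads, and ENSG00000202231, opposite to CSTF2, had 18.5% of 27 reads. The name ENSG00000206647 covered 2 sites within RRM2, 18067 nt apart, at 14.3% of 21 reads and 5.2% of 115 reads. ENSG00000281863 had 2 sites at 13% and 13.6% with 3 deletion reads each. ENSG00000252290, within RYR2 and on the opposite strand, had 8.7% of 2402 reads. Its 11-base context was also listed under the 5.8S ribosomal RNA names RNA5-8SN1, RNA5-8SN2 and RNA5-8SN3 on chromosome 21, with 5.6% to 6.5%. The list annotates these chromosome 21 sites as intronic, so the names alone do not place them in 5.8S RNA. The other listed sites of that context were ENSG00000233689 with 39% of 310 reads and 3 further loci with 5.2% to 6.1%.

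**Figure D3:**
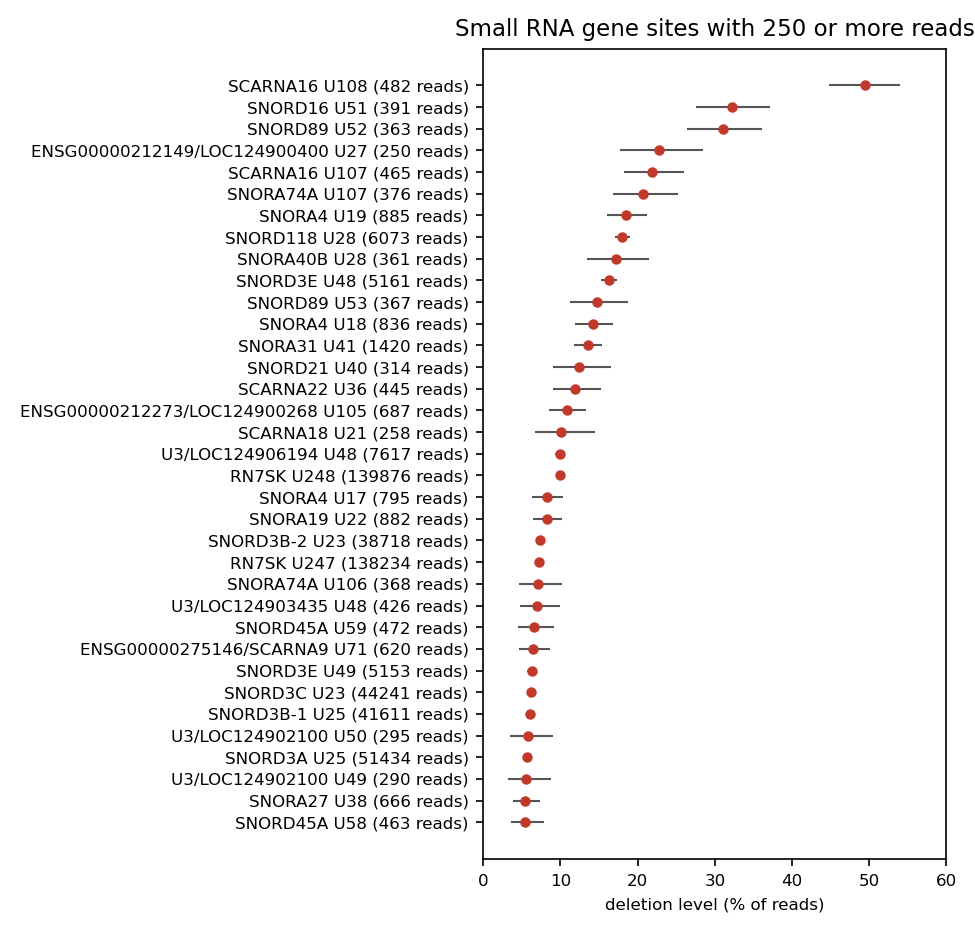
Deletion level (% of reads) with 95% Clopper-Pearson interval for the 35 sites inside small RNA genes with at least 250 reads, labelled by RNA, position in the RNA and coverage. SCARNA16 at 108 stands highest at 49.4%, followed by SNORD16 and SNORD89, whose intervals overlap each other, and most of the remaining sites lie below 20%.

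For the spliceosomal snRNAs, no site was listed under the names of the main genes looked for (18 symbols, among them RNU1-1, RNU2-1, RNU4-1, RNU4-2 and RNU5A-1), and all listed sites carried the names of variants and pseudogene copies. The list gives no coverage for a base that is not in it, so whether those RNAs had reads cannot be told from it. U1, which recognises the 5′ splice site, had 11 sites with a median level of 13.1%, and 6 intervals at or above 5%. Inside U1 genes, RNVU1-2 had 16.5% of 115 reads at position 88 and RNU1-19P had 22.2% of 36 reads at position 89, in the same 11 bases (exact test, adjusted p = 0.565). RNVU1-32 had 5.8% of 156 reads and RNU1-148P had 8.8% of 34 reads, both on chromosome 8.

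A further 4 sites named for U1 variants on chromosome 1 lay inside tRNA genes. RNVU1-28 had 21.4% of 56 reads inside TRN-GTT2-8 at position 55, and RNVU1-29 had 19.7% of 213 reads inside TRN-GTT24-1 at position 56, both asparagine tRNA genes. RNVU1-27 had 12.2% of 41 reads inside TRN-GTT2-1 at position 56, and RNVU1-7 had 13.1% of 61 reads inside the glutamine tRNA gene TRQ-CTG3-2 at position 54. Transfer RNAs are known to carry a pseudouridine in the loop named for it, and its part in these 4 sites was not tested. The remaining U1 names were outside: RNU1-56P had 21.7% of 23 reads, RNU1-39P 9.3% of 43 reads, and a second site of RNVU1-7, 77 nt from the gene, 9.8% of 41 reads.

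U2, which pairs with the branch point, had 6 sites with a median of 7.8%, and no interval lay at or above 5%. Inside genes, RNU2-61P had 5.5% of 73 reads at position 60 and RNU2-4P had 5.4% of 74 reads at position 65, with 4 deletion reads each. Outside, RNU2-45P had 6.7% of 45 reads and 8.9% of 56 reads, and RNU2-54P had 15% of 20 reads and 9.7% of 31 reads, each beyond 1000 nt from its gene. U5, which contacts exon ends, had 1 site, RNU5D-2P at position 30, with 8.3% on 3 of 36 reads.

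U4, the partner of U6 before splicing, had 6 sites with a median of 10.8% and 2 intervals at or above 5%. The 2 sites with at least 60 reads had a median of 33.2%, and those with at least 5 deletion reads 27.9%. RNU4-52P, on the strand opposite to WDR45, had 27.9% of 61 reads at position 77 (interval 17.2% to 40.8%). RNU4-62P, on the strand opposite to HCLS1, was listed at positions 52, 54 and 55 with 12.1% of 33 reads, 9.6% of 52 reads and 8.3% of 48 reads, and no pair of them differed (exact test, adjusted p = 0.926 to 1). RNU4-59P, outside, had 8.3% of 36 reads. The second highest level of all 128 sites, 38.5% of 740 reads (interval 35.0% to 42.1%), carried the name RNU4-47P but lay 9590 nt from that gene, within SEC14L1 and opposite to its strand. Its 11 bases were also listed on chromosome 12 with 67.4% of 135 reads. They were listed as well at 3 positions of chromosome 21 with 66858 to 70777 reads and levels of 7.7% to 7.8%. These chromosome 21 sites carry names of long non-coding RNAs. The first, at position 8218561, is near the site named for RNA5-8SN2, which is at 8217724 on the other strand.

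Of the snRNAs outside the major spliceosome, 7SK, the scaffold of the particle that holds the elongation factor P-TEFb inactive, was the deepest member. RN7SK had 7.2% of 138234 reads at position 247 and 9.9% of 139876 reads at position 248 of 332 (exact test, adjusted p = 5.24e-142 for a difference of 2.7 points). Both contexts were also listed at other loci, at up to 37.1% for position 248 and 41.3% for position 247. U7, which acts in histone mRNA processing, had 5 sites of 6.5% to 16.7%, and 4 of them lay outside. RNU7-26P lay inside the glycine tRNA gene TRG-GCC2-3 at position 52 with 12.8% of 47 reads, RNU7-200P had 16.1% of 31 reads, RNU7-180P 16.7% of 18 reads, and RNU7-43P 9.1% of 33 reads and 6.5% of 46 reads. U6atac, of the minor spliceosome, had RNU6ATAC16P at 5.4% of 93 reads and 5.6% of 89 reads and RNU6ATAC17P at 9.7% of 31 reads, all outside.

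Where uridines next to each other were both listed, the level was often higher at one of them. Of 14 such pairs among the members, 13 were higher at the base with the higher genome coordinate, 11 of 12 on the plus strand and 2 of 2 on the minus strand. On the minus strand this is the base nearer to the 5′ end, so in those 2 pairs the order followed the genome and not the RNA. So few pairs do not settle the order on that strand. The exception was RNU4-62P, with 5 and 4 deletion reads. The test separated 7 of the 14 pairs, and the other 7, of SNORD45A, SNORA72, SNORA13, RNU6ATAC16P, RNU4-62P, the chromosome 8 U3 copy and the last bases of SNORA4, had adjusted p = 0.0534 to 1 (Fisher's exact test). Over all listed sites 200 of 771 neighbouring pairs were higher at the higher coordinate, 145 at the lower, and 426 had equal levels. With at least 60 reads at both bases the counts were 12 of 12 among the members and 75, 34 and 42 among all 151 pairs. In SNORD3E the step was from 6.3% to 16.3% (exact test, adjusted p = 2.79e-58) and in SNORD89 from 14.7% to 31.1% (exact test, adjusted p = 7.42e-07), both on the minus strand.

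Of the 88 members in a run of at least 2 uridines (68.8% of members, 58.7% of all listed sites), 72 were at the end of the run with the highest coordinate (81.8%, beside 86.4% of all such listed sites). A deletion in a run of identical bases can be written at any base of it, so the base listed does not fix which uridine was skipped. Over 28 pairs of sites under the same symbol, chromosome and strand, 9 differed at an adjusted p below 0.05, and 10 of the 25 under the same gene ID. The other 3 pairs join distant U3 copies on chromosomes 3 and 14. Neighbouring bases share reads, so these tests do not compare independent molecules.

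**Figure D4:**
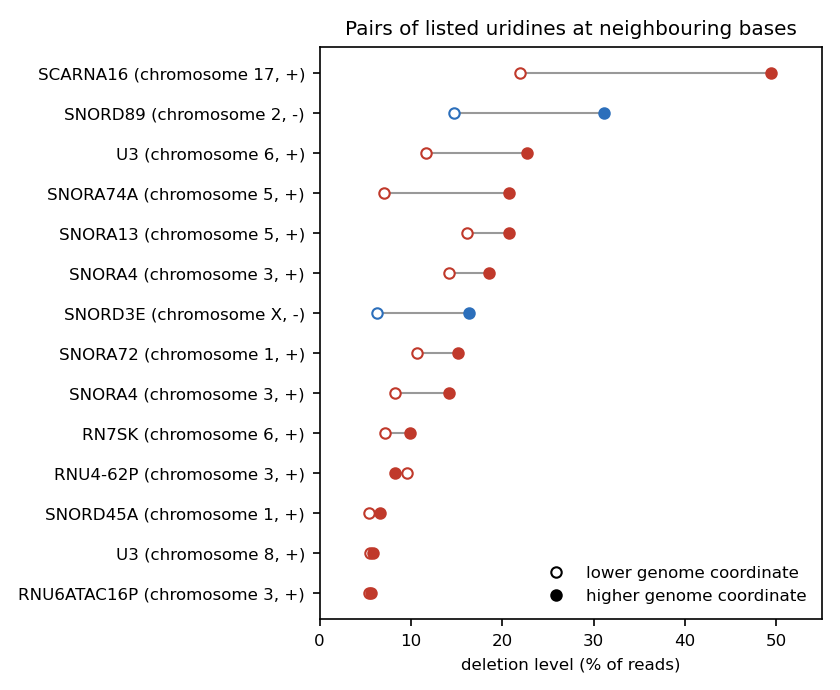
Deletion levels (% of reads) of the 14 pairs of listed uridines at neighbouring bases, with open points at the lower and filled points at the higher genome coordinate, red for the plus and blue for the minus strand. The filled point is to the right in 13 pairs, and SCARNA16 has the widest gap, from 21.9% to 49.4%.

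Contexts recurred more among the members than in the list: 33 of 128 (25.8%) had an 11-base context listed at another site, beside 12.4% of all listed sites, and the 128 sites had 117 distinct contexts. Among members 18 sites shared 7 contexts, which gave 16 pairs, and 8 pairs differed at an adjusted p below 0.05 (Fisher's exact test, two-sided), all 8 within U3 contexts.

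Motifs that pseudouridine synthases are known for were found at few sites. GUUCNA, the motif of TRUB1 with the listed base as its second U, was found at 3 members (2.34%; 0.746% of all listed sites). All 3, named RNVU1-7, RNVU1-27 and RNVU1-29, lay inside tRNA genes, and 0 lay inside a snoRNA, scaRNA or snRNA gene. The count was 5 (3.91% and 1.56%) when any uridine of the run could be the target. UNUAR, the motif of PUS7, was found at 6 members (4.69%) and 4.72% of all listed sites, and HRUAR, known for PUS1, at 1 (0.781%) and 3.96%. Uridines on both sides of the listed base were found at 13 members (10.2%) and 5.19% of all listed sites. On the plus strand these were 11 of 76 members (14.5%, beside 5.19% of such listed sites). On the minus strand they were 2 of 52 (3.85%, beside 5.2%). When any uridine of the run could count, 61 members (47.7%) and 35.2% of all listed sites had them. Of the sequence elements that define these RNAs, the 11 bases held CUGA, the core of box D, at 5 members, ACA at 9 and UGAUGA, the core of box C, at 0, beside 3.27%, 7.70% and 0.299% of all listed sites. The letters of box H (ANANNA) and of the Sm site (AUUUNUG) were each found at 1 member (0.781%), beside 5.01% and 0.814% of all listed sites. All motifs were read on the listed strand, and shares of UNUAR and GUUCNA at the listed base differed by strand. On the plus strand UNUAR was found at 5 of 76 members (6.58%) and 7.03% of all listed sites. On the minus strand it was found at 1 of 52 members (1.92%) and 2.26%. GUUCNA was found at 3 plus-strand members and 1.38% of such listed sites, and at 0 and 0.0769% on the minus strand. With any uridine of the run, UNUAR was found at 8 members (6.25%) and 7.11% of all listed sites.

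The proteins that work with these RNAs were looked up in the same list. Of 26 genes, 8 had a listed site, and the share of all genes with a listed site was not computed. The 25 sites had a median level of 11.1%, beside 12% over all listed sites. An interval at or above 5% was found at 5 of the 25, beside 29.8% of all listed sites. Of 12 pseudouridine synthase genes, PUS7 had 1 site at 10% of 40 reads in an intron, and PUS7L had 5, the highest at 31.6% on 6 of 19 reads. Of the proteins of H/ACA particles, SHQ1, an assembly factor, had 6 sites, NAF1 had 3 and NHP2 had 2. Of the box C/D proteins, NOP58 had 4 sites, up to 38.9% on 7 of 18 reads, and RRP9, which binds U3, had 1 site at 11.1% of 27 reads. SMN1, of the snRNP assembly complex, had 3 sites at 13% to 21.2%.

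The p-value of the authors' deposited table was exactly 0 at 112 of the 128 sites and above 0 at 16 (12.5%, beside 1.16% of all listed sites). It was 0 at a U3 site on chromosome 3 with 3 of 16 reads as well as at SNORD118 with 6073 reads. A p of 0 therefore does not tell how many reads stand behind a site. Its test was not given in the sources used here. When each p above 0 was taken for a binomial upper tail, 15 of the 16 gave an implied control deletion rate between 0.121% and 0.905%, with a median of 0.227%. No such rate was computed for the 112 sites with a p of 0, so these rates do not describe them.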

How the data were processed

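Libraries were grouped by title. The labels do not say whether a group's libraries were separate cultures. Per the submitters' processing notes the build is hg38. Aligner, site caller, handling of reads with several alignments and test were not given in the sources used here. Levels were deposited by the authors as a fraction and are printed in percent. Coverage was deposited as a read count, and the p-value is that of the authors' deposited table. Its minima were 5% level, 15 reads and 3 deletion reads, so lower levels are missing.

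Members and lists were chosen with earlier results of these data known. Deletion reads are level times coverage, which came out whole at all 13398 sites (rounding of 0.0005) and is approximate at the 12 members with at least 1000 reads. Positions are 1-based: 72 of 72 contexts of listed sites overlapping RefSeq promoter windows of GRCh38.p14 were equal there. How many of these were members was not counted. RefSeq coordinates placed the sites. That table gives no strand for small RNA genes, and 98 of 128 members had a symbol in it. Pairs were compared by a two-sided Fisher's exact test, adjusted (Benjamini-Hochberg) over the 16 pairs of shared context, the 28 under one symbol, chromosome and strand (25 under one gene ID) or the 37 that allow a shift of 1 base. Named were all sites of U1, U2, U4, U5 and scaRNAs, all of a class with at most 12 sites, otherwise the 6 deepest and the 6 highest, symbols with several sites and members sharing a context. Further sites of snoRNAs were named after their values were seen. Python 3.11.15, scipy 1.17.1 and pandas 2.3.3 were used, and scripts were tested on simulated data.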

Additional observations from a re-analysis of the deposited data

How the results depend on the processing

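Precision is set by depth: at the median coverage of 61.5 reads an interval spans many percentage points, and between-library spread is unknown. No paired analysis was possible because the table has no column per library, and for the same reason no library could be left out. Sites on the strand of their own gene were not run as an alternative because no strand of the small RNA genes was given; the strand of the host gene was used instead, chosen after seeing the data. The median level of 11.2% was 9.65% at coverage of at least 30 reads and 9.2% at 60 or more, where 68 sites remained. With at least 5 deletion reads it was 12.1% over 80 sites, and inside the RefSeq gene of the same symbol 10.1% over 61 sites. Inside any small RNA gene, an alternative chosen after seeing the data, 75 sites remained. Because every listed site has at least 3 deletion reads, sites of few reads cannot have low levels, which bears on medians of every class. The cause of these shifts was not tested. Among classes, medians that moved by over 1.5 times were those of box H/ACA, U3 and U4, printed with the classes, and U6atac, from 5.6% to 9.7% without sites opposite to a host gene, where 1 of 3 sites remained. The 58 intervals at or above 5% were 72 with Wilson intervals, 49 at 99% confidence and 29 with a threshold of 10%. The pairs of shared context that differed were 8 of 16, and 18 of 37 with a shift of 1 base. At the rounding bounds of the level that bring a pair closest, 8 of 16 and 9 of 28 pairs differed, as in the main counts. Under the same gene ID, also chosen after seeing the data, 10 of 25 pairs differed.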
